A study of Mus musculus with 6 samples.

Results

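Fibroblasts that express Pi16 and Dpp4 lie around vessels and in the outer connective tissue layers of many organs and are often called universal or adventitial fibroblasts. In the gut they are described from the submucosa and the deep lamina propria, beside Ackr4+ trophocytes, which supply R-spondins and BMP antagonists to the crypts. Pi16 encodes a secreted peptidase inhibitor, Dpp4 a membrane serine peptidase that cleaves peptide hormones, Cd248 endosialin, Anxa3 an annexin, Ly6c1 a lipid-anchored surface protein and Dpt the matrix protein dermatopontin.

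The cells described here were picked by their transcripts from single-cell RNA-seq of TSLP-tdTomato+ cells of the mouse intestinal lamina propria. A cell was a member if it had a UMI of Pdgfra, a UMI of at least 3 of the 6 genes Pi16, Dpp4, Cd248, Anxa3, Ly6c1 and Dpt, and no UMI of Ackr4, Prox1, Ptprc, Epcam or Myh11. Of 102534 cells that passed the filters (1000 to 7500 genes, 2500 to 40000 UMIs, under 10% mitochondrial UMIs), 77138 were Pdgfra+ and 7000 were members. These measured genes chose the members, so the levels of these genes, and the levels of any gene in members beside those in the cells they were picked from, are given as a description with no test. Tests were run between regions, on the members, on their share and on how the regional change differed between members and other Pdgfra+ cells.

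All libraries came from Flare-TSLP mice, C57BL/6 animals that carry a tdTomato reporter behind an internal ribosome entry site in the Tslp gene, with loxP sites around the last coding exons of Tslp and not around the reporter. No treatment is named for these mice. The authors give specific pathogen-free housing in general, and young adults of both sexes for their pooled experiments. Live tdTomato+ cells were sorted from the lamina propria of the proximal jejunum (2 libraries, proximal 1 and 2), the distal ileum (2 libraries, distal 1 and 2), the large intestine (1 library) and the cecum (1 library), after the epithelium and the Peyer's patches had been taken off. Each library pooled mice marked by hashtag antibodies. No table used here pairs a hashtag with a mouse, so each library counted as 1 sample. The members numbered 535 and 599 in the proximal, 1071 and 665 in the distal, 1949 in the cecum library and 2181 in that of the large intestine. The libraries held 109675337 to 206827504 UMIs on genes, and any pair of them shared 38 to 118 barcodes among the cells kept, of which 0 to 2 were members in both. Cecum and large intestine, 1 library each, are called the large bowel where they were compared together with the 4 small intestinal libraries. For these 2 tissues the region and the library cannot be told apart.

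The marker genes lay in mm39 at chr17:29536654-29549567 (Pi16), chr2:62159798-62242576 (Dpp4), chr19:5118106-5120710 (Cd248), chr5:96940544-96993828 (Anxa3), chr15:74915847-74920686 (Ly6c1) and chr1:164624187-164654544 (Dpt). Levels below are UMIs of a gene per 1000000 gene UMIs summed over the members of a library (CPM), in the order proximal 1, proximal 2, distal 1, distal 2, cecum and large intestine. The UMIs were read from transcript 3′ ends, so levels were compared between libraries and classes and not between genes.

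The label was checked against these genes. Most members met the rule through Cd248, Ly6c1 and Dpt, and few had a UMI of the 2 genes that name the population. A Pi16 UMI was found in 16.8% and 17.7% of proximal, 16.4% and 15.5% of distal, 25.2% of cecal and 13.0% of large intestinal members. A Dpp4 UMI was found in 2.66% (large intestine) to 7.29% (cecum) of members. Dpt was detected in 99.4% to 100% of members per library, Cd248 in 68.6% (large intestine) to 94.7% (proximal 2), Anxa3 in 39.0% (distal 1) to 60.2% (large intestine) and Ly6c1 in 67.4% (proximal 2) to 95.1% (large intestine). The Cd248, Ly6c1 and Dpt triplet without another marker accounted for 33.3% to 46.6% of the members of a library. As a background, 0.355% to 3.09% of Prox1+ Pdgfra- cells, which should be lymphatic endothelium, had a Pi16 UMI and 0.457% to 0.777% a Dpp4 UMI, at a median depth of 4918 to 7566 UMIs against 7342 to 10773 in the members. The members are therefore called by their rule, and no cell type name is given to them as a whole.

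**Figure D1:**
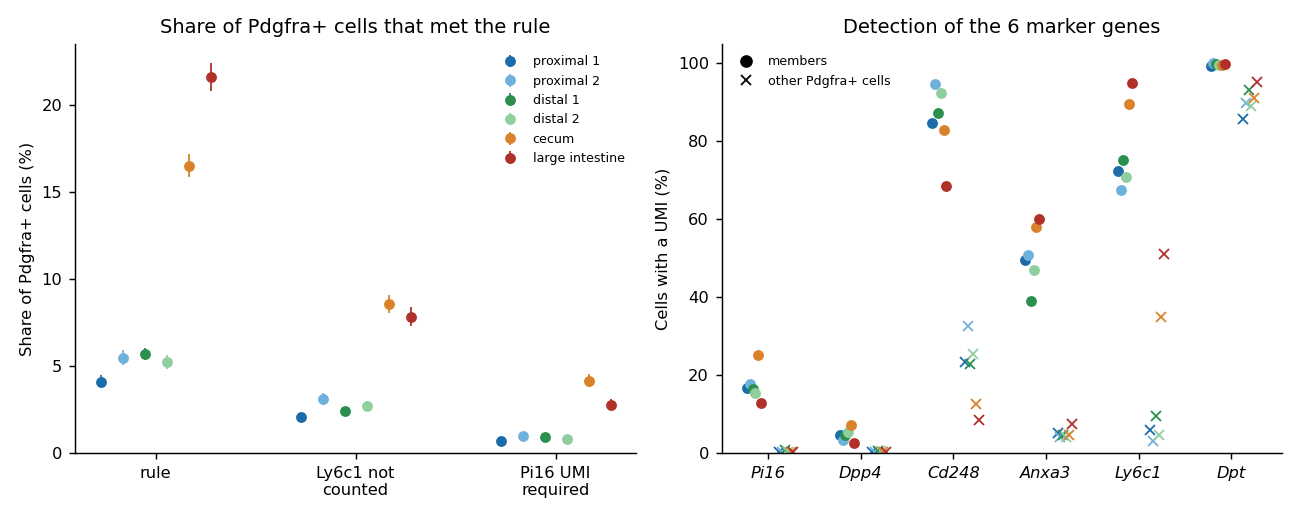
Left, the share of Pdgfra+ cells (%) that met the rule in each of the 6 libraries, by the rule, with Ly6c1 left out of the marker count and with a Pi16 UMI required (bars, exact 95% binomial intervals, counting error only). Right, the share of members (circles) and of the other Pdgfra+ cells (crosses) with a UMI of each marker gene. Cecum and large intestine lie above the 4 small intestinal libraries under each of the 3 definitions, and Pi16 and Dpp4 were detected in fewer members than the other 4 markers.

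The threshold of 3 markers cut through a continuous range. In the Pdgfra+ cells without a UMI of the 5 excluded genes, 1556, 1785, 2497, 1759, 2303 and 2132 cells had 2 markers and lay just outside, against 407, 445, 865, 504, 1097 and 1484 cells with 3 markers just inside. The level of Pi16 was 1.01 to 3.59 CPM in the cells with 2 markers and 4.09 to 17 CPM in the cells with 3. Pi16 is itself a counted marker, so the direction of this difference follows in part from the rule. Mfap5, an elastic fibre protein that the rule did not count, was at 74.7 to 192 CPM just outside and 181 to 300.4 CPM just inside. Members were also the deeper cells, with a median of 7342 to 10773 UMIs per library against 6155 to 9210 in the other Pdgfra+ cells.

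The exclusion of Ackr4, an atypical chemokine receptor that marks trophocytes, took away more cells than it left in 5 of the 6 libraries. Of the Pdgfra+ cells with at least 3 markers, 72.2% and 58.6% of proximal, 71.4% and 54.6% of distal, 62.6% of cecal and 28.8% of large intestinal cells had an Ackr4 UMI. Among all Pdgfra+ cells with a Pi16 UMI, 58.2% to 85.1% per library also had an Ackr4 UMI, and members made up 10.2% (distal 1) to 34.6% (large intestine). Pi16 was thus detected more broadly than the members cover, and it was found in 10.1% to 33.1% of all Ackr4+ Pdgfra+ cells per library.

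Members made up 4.13% and 5.49% of the Pdgfra+ cells in the proximal libraries, 5.73% and 5.23% in the distal libraries, 16.5% for the cecum and 21.6% for the large intestine. The exact 95% binomial intervals were 3.79% to 4.49% for proximal 1, the lowest, and 20.8% to 22.4% for the large intestine, the highest. The mean share was 19.1% ± 3.59 (SD, n = 2) in the large bowel and 5.15% ± 0.707 (SD, n = 4) in the small intestine, a difference of 13.9 percentage points with no overlap between the groups (two-sided exact permutation test p = 0.133, the smallest this design allows). The distal mean of 5.48% ± 0.350 (SD, n = 2) and the proximal mean of 4.81% ± 0.966 (SD, n = 2) overlapped in their libraries (exact permutation test p = 0.667, with 0.333 the smallest possible).

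Ly6c1 itself differed between regions in the cells outside the members. It was detected in 5.88%, 3.16%, 9.57% and 4.67% of the other Pdgfra+ cells of the small intestine, in 35.1% of cecal and in 51.1% of large intestinal cells. With Ly6c1 left out of the marker count, an alternative chosen after seeing the data, the shares were 8.21% in the large bowel and 2.58% in the small intestine, a difference of 5.63 points. With a Pi16 UMI required they were 3.49% and 0.855%, a difference of 2.63 points, and with every cell thinned to 2500 UMIs 11.3% and 2.21%, a difference of 9.10 points. The large bowel libraries stayed above the small intestinal ones under each of these, but their own order turned. With Ly6c1 not counted the cecum was at 8.58% and the large intestine at 7.85%. With a Pi16 UMI required they were at 4.17% and 2.81%, and after thinning at 13.7% and 8.94%.

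The members were next set beside the other Pdgfra+ cells of the same libraries (29259 cells with 0 to 2 markers and none of the excluded genes). Genes of adventitial fibroblasts were higher in the members and genes of villus-side and subepithelial fibroblasts lower. The rule used the genes of both classes, so these contrasts describe the choice. Of 4152 genes at 50 CPM or more, 675 were higher and 1301 lower in members in 6 of 6 libraries, but 34 and 36 by 2-fold or more in the median. Of 36 adventitial genes at 5 CPM or more, none of them in the rule, 30 were higher in members in 6 of 6 libraries and 0 lower, with a median log2 ratio of 0.77, where 11.1% of all 11392 genes at that level were higher and 24.9% lower. Of 14 telocyte and subepithelial genes 9 were lower and 1 higher in 6 of 6 libraries (median -0.60), and of 10 lamina propria fibroblast genes 6 were lower and 0 higher (median -0.92). Immediate early and heat shock genes, which respond to stress, moved with this contrast, since 16 of 24 were higher in members in 6 of 6 libraries and 0 lower, with a median of 0.79. Their part in the contrast was not tested.

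Scara5, a ferritin receptor, had the highest ratio, a median of 2.43 over the libraries (range 1.49 to 3.07) on the log2 scale with 5 CPM added to each level. Its level was 191, 180, 52.2, 75.7, 152 and 72.8 CPM in members and 5.95 to 64.7 CPM in the other cells. Gfpt2, a hexosamine pathway enzyme, was at 203, 276, 208, 307, 936 and 289 CPM in members against 52.2 to 111 CPM. Igfbp6, an IGF-binding protein, was at 135, 133, 213, 154, 545 and 346 CPM against 24 to 96.3 CPM. In each of these genes every library had its member level above its other Pdgfra+ cells, and for Gfpt2 and Igfbp6 the cecum was the highest.

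The remaining genes of the 15 with the highest ratio were Ebf1 (median log2 ratio 2.18), a transcription factor, Has1 (2.13), a hyaluronan synthase, Pcolce2 (1.95), an enhancer of procollagen processing, and Mfap5 (1.78), followed by Col8a1 (1.72), Adgrd1 (1.51), Penk (1.45), which encodes proenkephalin, Tek (1.43), an angiopoietin receptor, 9630002D21Rik (1.41), Flrt2 (1.36), Cd81 (1.35), a tetraspanin, and Cilp (1.25). These genes were not highest in the members among all Pdgfra+ cells. Of the 15, 11 were lower in members than in Ackr4+ Pdgfra+ cells in 6 of 6 libraries and 0 were higher in all 6. Scara5 was at 76.0 to 337 CPM in Ackr4+ cells, and Cd81 at 162 to 615 CPM against 65.4 to 380 CPM in members. Of the 36 adventitial genes, 9 were lower and 4 higher in members than in Ackr4+ cells in every library, where 7.95% of all genes at 5 CPM or more were lower and 26.3% higher.

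At the other end, Itga8, an integrin chain, had a median log2 ratio of -2.38. Its level in members was 30.5, 17, 12.8, 27.2, 8.22 and 4.83 CPM against 188, 153, 83.3, 232, 13.7 and 5.86 CPM in the other Pdgfra+ cells, so that the classes lay close in the large bowel. Genes of villus and subepithelial fibroblasts followed, among them Wnt4 (-2.06), a WNT ligand, the chemokine Cxcl14 (-2.0), Igfbp3 (-1.93), the cytokine Il34 (-1.87) and Agt (-1.44), which encodes angiotensinogen. The other genes of the 15 were Ank3 (-2.35), the growth factor Nrg1 (-2.21), P2rx1 (-2.09), Unc5c (-1.79), Col6a4 (-1.52), Gna14 (-1.47), Adgrl3 (-1.34), Nck2 (-1.25) and Ptn (-1.23). Of the 15, 5 were higher and 2 lower in members than in Ackr4+ cells in 6 of 6 libraries. Adamdec1, the metalloprotease that marks lamina propria fibroblasts, stayed abundant in members at 3243, 4380, 5991, 6521, 5286 and 5126 CPM. The other Pdgfra+ cells had 4342 to 8529 CPM of it and the Ackr4+ cells 913 to 3138 CPM.

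The members with a Pi16 UMI (90, 106, 176, 103, 491 and 283 cells) were set beside the members without one. A Pi16 UMI chose these cells, and the values are again a description. Gfpt2 was at 328, 891, 537, 957, 1509 and 928 CPM in Pi16+ members against 180, 147, 148, 194, 740 and 188 CPM in Pi16- members, a median log2 ratio of 2.05. Mfap5 was at 531 to 1051 CPM against 215 to 318 CPM, with no overlap between the classes. Adamdec1 went the other way, at 1881, 2371, 4065, 3722, 1525 and 1519 CPM in Pi16+ and 3489, 4801, 6346, 7008, 6572 and 5697 CPM in Pi16- members. Of the 36 adventitial genes, 28 were higher and 1 lower in Pi16+ members in 6 of 6 libraries, where 5.69% of all genes at 5 CPM or more were higher and 13.7% lower. The immediate early and heat shock genes were again higher, at a summed 12834, 17993, 15375, 15788, 49808 and 15353 CPM in Pi16+ against 11240, 8516, 11842, 9709, 34915 and 12576 CPM in Pi16- members, and their part was not tested. Among genes at a mean of 50 CPM or more in Pi16+ members that were higher there in 6 of 6 libraries, Gfpt2 had the largest ratio. Has1 (2.00), Cilp (1.89) and Cd81 (1.79) followed. Among genes at 50 CPM or more in Pi16- members that were lower in Pi16+ members in 6 of 6 libraries, Fabp4 had the lowest ratio (-2.21). It encodes a fatty acid binding protein of capillaries and adipocytes. Between members and the other Pdgfra+ cells Fabp4 was higher in members in 5 of 6 libraries (median log2 ratio 1.93, range -0.20 to 3.50), and so was Flt1 (1.82, range -0.057 to 2.92), which had a ratio of -1.68 for Pi16+ over Pi16- members.

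**Figure D2:**
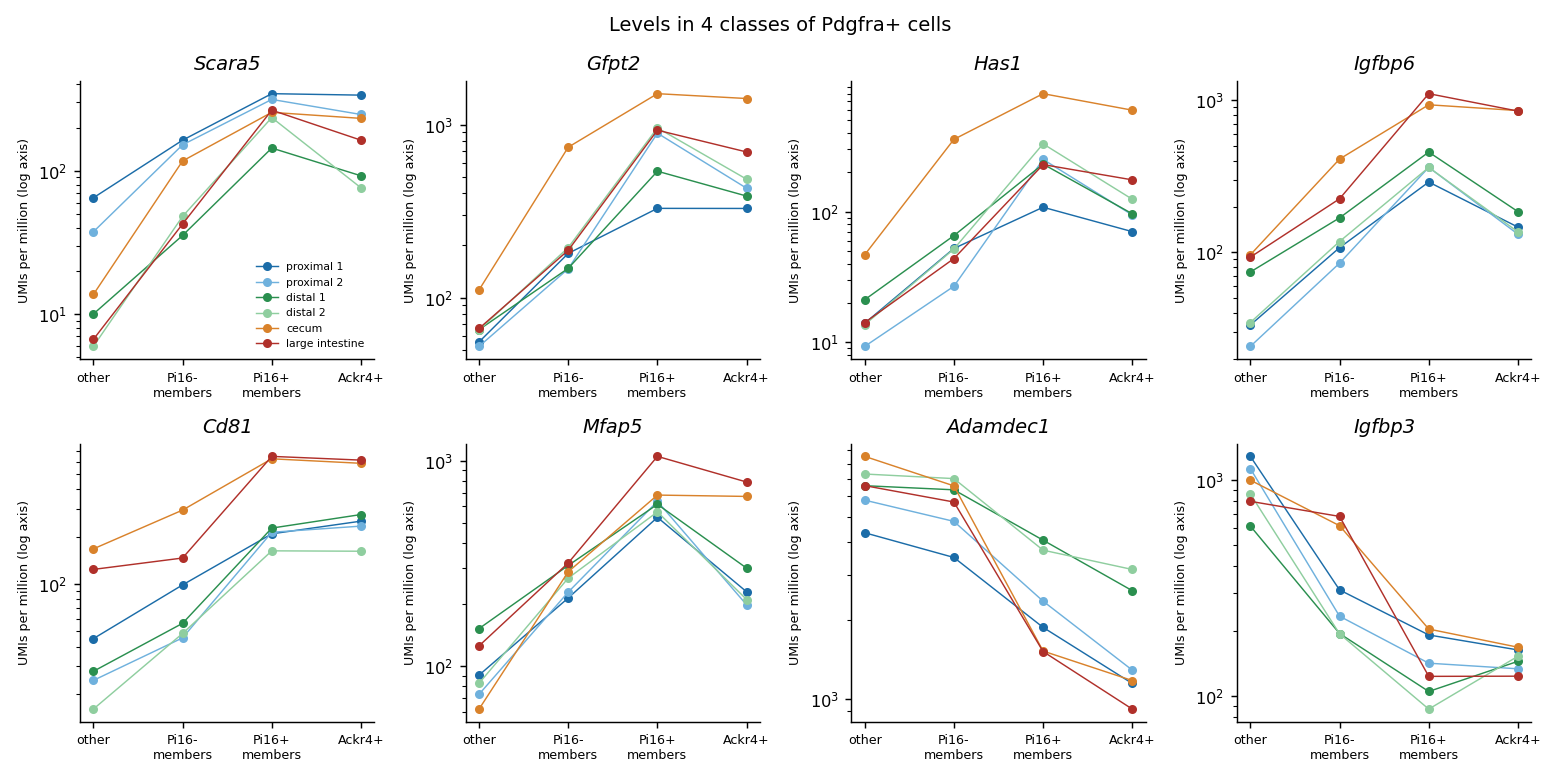
Level in CPM (log axis) of 8 genes in the other Pdgfra+ cells, Pi16- members, Pi16+ members and Ackr4+ Pdgfra+ cells, with 1 line per library. Scara5, Gfpt2, Has1, Igfbp6, Cd81 and Mfap5 were higher in Pi16+ than in Pi16- members in every library, and Adamdec1 and Igfbp3 lower.

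Markers of other cells were low in the members, with some exceptions. The mesothelial gene Msln had 0 UMIs in every class and library, and Upk3b was found in at most 0.150% of the members of a library. The list of 14 mesothelial genes, however, summed to 289, 311, 254, 251, 114 and 77.0 CPM in members. In the other Pdgfra+ cells it summed to 264, 280, 240, 199, 94.1 and 58.2 CPM. Of its 4 genes at 5 CPM or more, 2 were higher in members in 6 of 6 libraries and 0 lower (median log2 ratio 0.33). The 5 blood endothelial markers (Cdh5, Plvap, Flt1, Kdr and Vwf) summed to 749, 124, 160, 203, 23.0 and 38.8 CPM in members and to 32.7 to 155 CPM in the other Pdgfra+ cells, with none of the 5 at 0 throughout. Of the 5, 2 were higher in members in 6 of 6 libraries and 0 lower, with a median log2 ratio of 1.08. A UMI of at least 1 of them was found in 29.0%, 26.2%, 17.3%, 27.4%, 12.2% and 13.5% of members and in 30.1%, 26.5%, 18.7%, 30.0%, 18.0% and 10.7% of the other Pdgfra+ cells. The 5 immune markers, of which Ptprc was at 0 by the rule, summed to 436 CPM in proximal 1 and 4.21 to 97.3 CPM elsewhere. The 4 pericyte markers summed to 496 to 977 CPM in the small intestine, 34.8 CPM in the cecum and, for the large intestine, 94.1 CPM, below the other Pdgfra+ cells in every library (797, 767, 891, 1153, 118 and 241 CPM). Tslp was at 0.541 to 2.57 CPM and tdTomato at 0.676 to 5.82 CPM in members, and neither passed the test between large bowel and small intestine described below (log2 fold change 0.55 ± 0.57 SE, adjusted p = 0.51, and 1.15 ± 0.53 SE, adjusted p = 0.15).

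Region was not named in the rule, but the rule gene Ly6c1 differed between regions as given above, so the rule admitted different cells by region. The excluded genes differed between libraries as well. Of the Pdgfra+ cells with at least 3 markers, 21.6% in the large intestine had a Myh11 UMI, against 3.18% to 10.9% in the other libraries. For Ackr4 these shares were 28.8% and 54.6% to 72.2%. Members with Anxa3, Ly6c1 and Dpt as their only markers made up 4.17% to 9.91% of the members of the small intestinal libraries, 11.4% of the cecal and 29.3% of the large intestinal ones. The members of the large bowel were compared with those of the small intestine on sums per library (edgeR quasi-likelihood test with Benjamini-Hochberg adjustment, 2 against 4 libraries). Of 14372 genes tested, 1706 were higher (11.9%) and 1311 lower (9.12%) in large bowel members, 21% in all, and the median log2 fold change over all genes tested was 0.025. Nothing used here says which mice made up a library, so the p-values measure only the spread between these libraries, which may be technical in part. With Ly6c1 not counted as a marker, 1098 of 12867 genes were higher (8.53%) and 885 lower (6.88%), and 1737 of the 3017 calls were made again. Of 91 called genes named below, 86 were tested under that definition, 78 were called again in the same direction and 0 had the opposite sign. The fold changes below are fitted log2 values, large bowel over small intestine, with their SE. All gene lists were chosen with earlier results of these data known, so the counts per list are a description.

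Hox genes, which set the position of cells along the body axis, were among the largest rises. Of 30 tested, 11 were higher and 9 lower in large bowel members, against 11.9% and 9.12% of all genes tested. Hoxd11 (chr2:74509901-74517360) had 0 UMIs in the 4 small intestinal libraries and 24.1 and 47.7 CPM in cecum and large intestine, at least 381-fold higher against a floor of 3 UMIs over the small intestinal group. The same held for Hoxa11, at 6.93 and 20.0 CPM (at least 147-fold), for Hoxc11, at 2.65 and 2.40 CPM (at least 24.8-fold), and for the noncoding Hoxa11os, at 9.26 and 61.6 CPM (at least 406-fold). Hoxa11os overlaps Hoxa11 on the opposite strand, so reads of the pair can be told apart only by strand.

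Hoxa9 (chr6:52200080-52208069) was at 45.4 and 33.1 CPM in the large bowel and had 2 UMIs in all small intestinal members, a ratio of 564 with a 95% counting interval of 156 to 4659. Hoxa10 was at 48.3 and 78.3 CPM against 0 to 0.513 CPM (log2 7.89 ± 0.40, adjusted p = 0.00017). Hoxd9 (6.88 ± 0.66, adjusted p = 0.0013) and Hoxd10, at 14.7 and 11.2 CPM against 1 UMI in all, also rose, together with Hoxc10, Hoxd3, Hoxd4 and Hoxd8. The 9 that fell were Hoxa2, Hoxa4, Hoxb2, Hoxb3, Hoxb4, Hoxb6, Hoxb7, Hoxb8 and Hoxc4. All called genes of paralogue group 9 and above were thus higher, and all called Hoxb genes lower. The other Pdgfra+ cells had Hoxa10 at 66.2 and 83.7 CPM in the large bowel and 0 to 0.0590 CPM in the small intestine, and in the test of the difference between the classes described below 2 of 33 Hox genes passed.

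**Figure D3:**
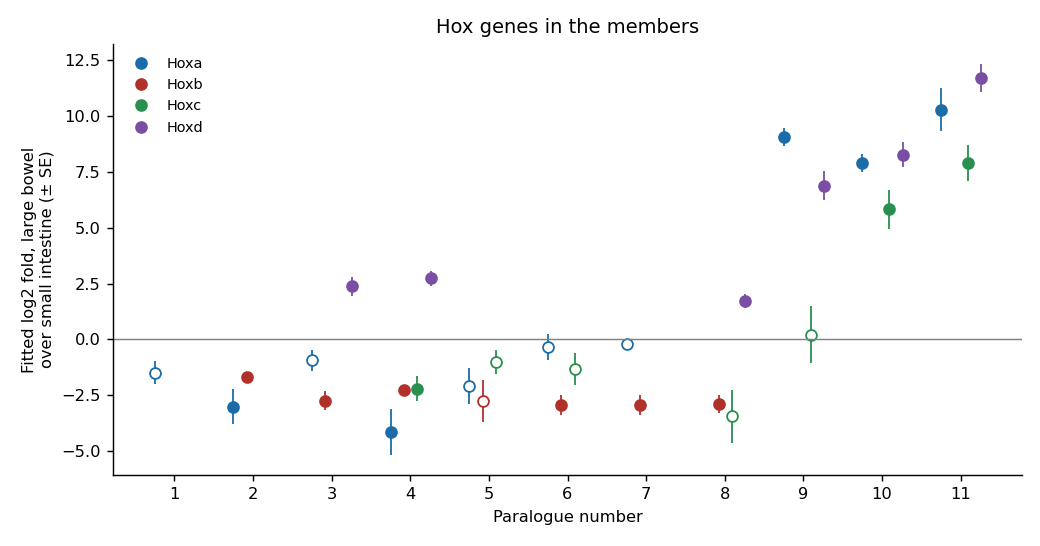
Fitted log2 fold change (± SE) of 30 Hox genes in members, large bowel over small intestine, by paralogue number and coloured by cluster, with filled circles for an adjusted p under 0.05. Genes of group 9 to 11 lie high and the Hoxb genes low. The values of Hoxa11, Hoxc11 and Hoxd11, at 0 in the small intestine, depend on the prior count of the fit.

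Other genes with the largest rises were Grip1, Eya4, Lef1, Spock3 and Bmp3. Grip1, a synaptic scaffold protein, was at 1.30, 1.22, 0.616, 2.08, 89.8 and 96.2 CPM (log2 6.27 ± 0.26, adjusted p = 9e-05), and it differed little between the large bowel libraries. Eya4, a transcriptional coactivator, was at 0 to 1.03 CPM in the small intestine, 18.8 CPM in the cecum and 54.7 CPM in the large intestine. Lef1, a WNT effector, was at 1.23 CPM in the cecum and 39.7 CPM in the large intestine. Spock3 (2.07 and 49.9 CPM) and Bmp3 (1.94 and 38.6 CPM) had the same unequal levels, so that these 3 rises rested mainly on the large intestine.

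Among the genes that fell most, Dkk2, a WNT inhibitor, was at 417, 429, 645 and 730 CPM in the small intestine and 4.60 and 1.98 CPM in the large bowel (log2 -7.34 ± 0.55, adjusted p = 0.00044). Vwc2, a secreted BMP modulator, went from 270, 282, 174 and 207 CPM to 1.49 and 0.546 CPM (-7.83 ± 0.46, adjusted p = 0.00024). Lrat, which esterifies retinol for storage, went from 184, 295, 61.2 and 120 CPM to 0.453 and 0.294 CPM (-8.71 ± 0.88, adjusted p = 0.0017). The other Pdgfra+ cells had Dkk2 at 356 to 764 CPM in the small intestine and at 18.5 and 3.90 CPM in the large bowel. Frem2 (-6.11 ± 0.44), Tmem132c (-5.30 ± 0.56), Fgf14 (-5.13 ± 1.02) and Aqp1 (-4.96 ± 0.63) fell as well.

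Defa24, Mecom and Adgrl4 were also in this group by size. Defa24, a Paneth cell defensin, was at 91.3, 13.0, 16.7 and 33.3 CPM in small intestinal members and 0 UMIs in the large bowel, at least 436-fold lower, and at 91.7, 17.3, 16.2 and 30.5 CPM in the other Pdgfra+ cells. Mecom (162, 24.7, 26.5, 31.9, 0.324 and 2.02 CPM) and Adgrl4 (167, 20.5, 21.9, 36.0, 0.777 and 2.56 CPM) were highest in proximal 1, as the blood endothelial markers were. Of the 5 blood endothelial markers 4 fell (Cdh5, Plvap, Flt1 and Kdr) and 0 rose. Counting the main fit, Flt1 and Plvap each passed in 12 of 19 settings and Kdr and Cdh5 each in 16 of 19. Leaving out the cecum left 1 large bowel library. The fitted log2 fold changes were then -3.62 for Flt1, -3.91 for Kdr, -3.24 for Cdh5 and -2.14 for Plvap. Their part in these results was not tested.

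**Figure D4:**
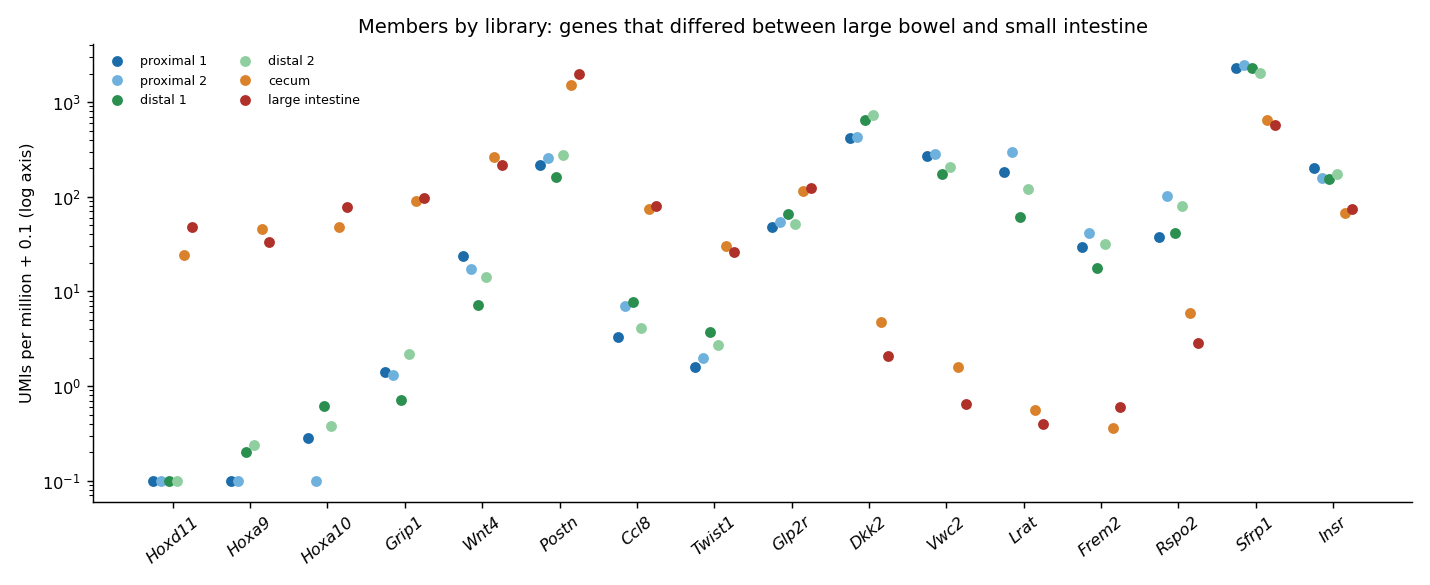
Level of 16 genes in members of each library, in CPM with 0.1 added (log axis). The genes were picked from those called between large bowel and small intestine. For each of them cecum and large intestine lie on the same side of the 4 small intestinal libraries, which follows in part from this choice.

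Secreted signals of the crypt niche differed between regions. Of 13 telocyte and subepithelial genes tested 10 rose and 0 fell (median log2 fold change 1.97), against 11.9% and 9.12% of all genes. Among those that rose were Wnt4, Bmp7, Bmp3, Sox6, Agt and Foxl1. The list of 14 summed to 458 to 582 CPM in small intestinal, 1113 CPM in cecal and 2054 CPM in large intestinal members. The other Pdgfra+ cells rose as well, from 629 to 844 CPM in the small intestine to 1664 CPM (cecum) and 2867 CPM (large intestine). Wnt4 was at 23.6, 17.3, 7.08 and 14.1 CPM in the small intestine and 265 and 215 CPM in the large bowel (4.08 ± 0.35, adjusted p = 0.00089). With a Pi16 UMI required, 5 of 10 tested rose and 0 fell, where 3.78% of all genes tested rose and 3.87% fell. Bmp7 (2.05, 1.76, 0.718, 1.39, 9.97 and 64.4 CPM) and Sox6 (16.5, 20.4, 6.88, 5.82, 55.3 and 370 CPM) were higher in the large intestine than in the cecum.

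Trophocyte genes split. Of 9 tested, 3 rose (Cd81, Fgf7 and Ogn) and 5 fell (Grem1, Rspo3, Wnt2b, Dkk2 and Sfrp1), against 11.9% and 9.12% of all genes. Sfrp1, a secreted WNT antagonist, was at 2306, 2473, 2314 and 2041 CPM in the small intestine and 641 and 569 CPM in the large bowel (-1.83 ± 0.19, adjusted p = 0.0018). Grem1, a BMP antagonist, fell from 259 to 337 CPM to 61.1 and 120 CPM (-1.62 ± 0.25). Rspo2 (-3.85 ± 0.56) and Rspo3 (-1.54 ± 0.30), which amplify WNT signals, fell together. Over all 35 WNT and BMP signals and antagonists tested 11 rose and 6 fell, with a median of 0.33. Sfrp2, another WNT modulator, was at 21.5 and 5.80 CPM in the large bowel and had 3 UMIs in all small intestinal members, a ratio of 119 (40.4 to 578).

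Of 10 lamina propria fibroblast genes 3 rose and 4 fell, against 11.9% and 9.12% of all genes tested. This list was chosen with earlier results of these data known, so its counts are a description. Postn, which encodes the matrix protein periostin, was at 218, 258, 160 and 273 CPM in the small intestine and 1509 and 1994 CPM in the large bowel (3.03 ± 0.20, adjusted p = 0.00037). The chemokine Ccl8 went from 3.16 to 7.60 CPM to 73.9 and 78.8 CPM (3.85 ± 0.29). Cxcl14 rose (2.54 ± 0.32), and Vwc2, Lrat, Itga8 and Frmd5 fell.

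In the 28 cytokines and chemokines tested 10 rose and 0 fell (median 0.74), where 11.9% of all genes tested rose and 9.12% fell. Ccl7 (2.60 ± 0.54), Cxcl13 (2.12 ± 0.49) and Cx3cl1 (2.06 ± 0.47) were among them. Over the 19 alternatives Cxcl13 lost the call in 7 and went down to 0.31. Counting the main fit, Cx3cl1 passed in 12 of 18 settings and went down to 1.06. Tnfsf11, the RANK ligand, was at 1.29 and 4.58 CPM and had 1 UMI in small intestinal members, a ratio of 97.7 (17.2 to 3890). Of 15 complement genes 1 rose, Clu (2.40 ± 0.38), and 4 fell, among them C7, Cd46 and C4b. The calls of C7 and C4b were lost in 8 and 9 of the 19 alternatives. Of 28 interferon response genes Ifi27 alone passed, and it rose.

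Matrix genes mostly rose where they moved. Of 59 extracellular matrix genes tested 15 rose and 3 fell (median 0.38). The basement membrane collagens Col4a6 (4.15 ± 0.30) and Col4a5 (3.51 ± 0.22), Postn, Ogn (2.48 ± 0.24), Emilin2 (1.82 ± 0.29) and Thbs2 (1.81 ± 0.30) had the largest rises, and Fbln1, Sparcl1 and Lama2 fell. Among 24 matrix proteases and inhibitors Plau (3.13 ± 0.39), Htra1 (2.07 ± 0.17), Plat (0.97 ± 0.24) and Mmp19 (0.84 ± 0.15) rose, and Mmp3 fell (-1.31 ± 0.13). Over all genes tested 11.9% rose and 9.12% fell, so the counts of the 24 proteases and inhibitors lay near those of all genes. Of the 59 extracellular matrix genes a larger share rose and a smaller share fell. With a Pi16 UMI required the change of Mmp3 was -0.0048 (adjusted p = 0.99).

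Receptors for hormones and for TSLP itself went in both directions. Of 8 TSLP and peptide hormone receptors tested 2 rose and 2 fell, against 11.9% and 9.12% of all genes tested. Glp2r (chr11:67552328-67662461), the receptor for glucagon-like peptide 2, was at 47.6, 54.2, 65.1 and 51.9 CPM in the small intestine and 116 and 122 CPM in the large bowel (1.19 ± 0.15, adjusted p = 0.0039). Glp2r was at 28.0 to 96.3 CPM in the other Pdgfra+ cells, and no difference of its regional change between the classes was called (-0.16 ± 0.14 in log2, adjusted p = 0.70). Crlf2, which encodes a TSLP receptor chain, was at 12.6, 11.5, 14.9, 9.84, 19.5 and 27.6 CPM (1.01 ± 0.20, adjusted p = 0.016). The insulin receptor gene Insr (-1.21 ± 0.14, adjusted p = 0.0026) and Igf1r (-0.78 ± 0.16, adjusted p = 0.018) fell. Of 8 insulin-like growth factor genes Igfbp4 (1.57 ± 0.18), Igfbp6 (1.57 ± 0.28), Igfbp3 (1.44 ± 0.20) and Igf2r (0.68 ± 0.18) rose and Igf1r fell.

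Of 23 retinoid and lipid genes 7 rose and 2 fell, where 11.9% of all genes tested rose and 9.12% fell. Rbp4, a retinol carrier, was at 5.58, 5.68, 5.54 and 3.60 CPM in the small intestine and 38.2 and 139 CPM in the large bowel (4.15 ± 0.43, adjusted p = 0.0017). Ptgs2, an inducible prostaglandin synthase (2.25 ± 0.17), Lpl, lipoprotein lipase (1.92 ± 0.24), and Dhrs3 (1.39 ± 0.21) rose. Aldh1a2 (-1.73 ± 0.33) and Aldh1a3 (-1.50 ± 0.22), which make retinoic acid, fell. Of 37 transcription factors of gut and mesenchyme 14 rose and 6 fell. Twist1 went from 1.49 to 3.59 CPM to 30.2 and 26.2 CPM (3.57 ± 0.29, adjusted p = 0.00069), Pitx1 from 8.37 to 27.7 CPM to 187 and 195 CPM (3.48 ± 0.41), and Prrx2 (2.17 ± 0.20) and Osr2 (2.65 ± 0.70) rose. Counting the main fit, Osr2 passed in 11 of 19 settings.

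Of the 39 adventitial genes tested 11 rose and 2 fell in large bowel members (median 0.46), against 11.9% and 9.12% of all genes. Procr, the protein C receptor, was at 9.85, 17.2, 6.67, 4.71, 50.9 and 146 CPM (3.42 ± 0.48, adjusted p = 0.0053). Its product is CD201, which the authors use to mark villus subepithelial fibroblasts and telocytes. With a Pi16 UMI required its change was 0.86 (adjusted p = 0.54). Opcml (2.59 ± 0.44), Pla1a (2.28 ± 0.40), Efhd1 (2.19 ± 0.62), Igfbp6 and Gfpt2 (1.43 ± 0.42, adjusted p = 0.048) rose. Gfpt2 overlapped between the groups, and without the cecum its change was 0.22. Counting the main fit, it passed in 8 of 20 settings. Limch1 (-2.34 ± 0.23) and Smpd3 (-2.12 ± 0.53) fell. Efhd1 lost the call in 9 of 19 alternatives and Smpd3 in 8 of 18. Without the cecum 4 of 39 rose and 3 fell (median 0.036), where 4.95% of all genes tested rose and 3.49% fell. Without the large intestine 18 of 40 rose and 1 fell, where 8.25% of all genes rose and 6.93% fell. With Ly6c1 not counted 17 of 39 rose and 1 fell, where 8.53% of all genes rose and 6.88% fell.

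Immediate early and heat shock genes, which cells switch on quickly under stress, moved with the cecum. Of 24 tested 13 rose and 0 fell (median 1.28), where 11.9% of all genes tested rose and 9.12% fell. Without the cecum, with 1 large bowel library left, the median of these 24 genes was 0.29. Their summed level was 11484, 10159, 12391 and 10610 CPM in the small intestine, 38708 CPM in the cecum and 12956 CPM in the large intestine. Fosb was at 248, 194, 273, 259, 2093 and 370 CPM (2.47 ± 0.56) and Jun at 750, 644, 907, 732, 3706 and 1295 CPM (1.84 ± 0.39). Atf3 (2.10 ± 0.53), Hspb1 (2.22 ± 0.54), Hspa1a (1.67 ± 0.24) and Dnajb1 (1.65 ± 0.48) were called as well, although the libraries of the groups overlapped for Dnajb1. Counting the main fit, Dnajb1 passed in 7 of 20 settings and went down to 0.18. Atf3 passed in 11 of 20 and went down to 0.29. The other Pdgfra+ cells had the same order, at 5738 to 9218, 23930 and 12620 CPM. The part of these genes in the other results was not tested.

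**Figure D5:**
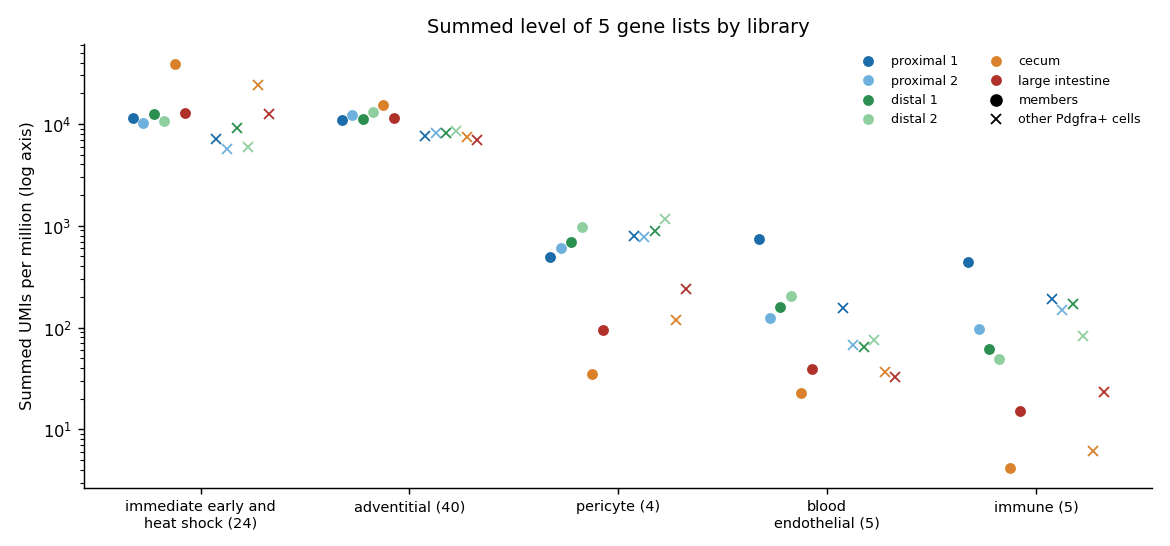
Summed level in CPM (log axis) of 5 gene lists, with the number of genes in parentheses, in members (circles) and other Pdgfra+ cells (crosses) of each library. The cecum stands highest for immediate early and heat shock genes, and proximal 1 for blood endothelial and immune markers.

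The remaining lists held few genes that could be tested, and 11.9% of all genes tested rose and 9.12% fell. Of 6 mesothelial genes tested Slpi rose and Gpm6a, Nkain4 and Aldh1a2 fell, and of 6 proliferation genes Mki67, Top2a, Birc5 and Cdk1 rose. Of 4 lymphatic markers 3 fell (Lyve1, Flt4 and Mmrn1). Of 4 pericyte markers Kcnj8 rose and Rgs5 fell, of 3 smooth muscle markers Des rose, of 2 Cajal cell markers 1 was tested and rose (Ano1), and the 1 immune marker tested, Jchain, fell. None of the 2 glial and 2 epithelial markers tested passed.

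With a Pi16 UMI required 10615 genes were tested and 688 of the 3017 calls were made again, 20.5% of the higher and 25.8% of the lower. Of the 91 named genes, picked largely by size, 79 were tested under that definition and 27 no longer passed. In 15 of these the fitted log2 fold change was also smaller by more than 1.5 times, namely Procr (0.86), Ogn (0.90), Rspo3 (-0.98), Frmd5 (-1.08), Cxcl14 (1.08), Clu (1.09), Plau (1.84), Mmp3, Ptgs2 (1.01), Lpl (1.09), Dhrs3 (0.71), Igfbp3 (0.45), Osr2 (1.45), Prrx2 (1.00) and Cxcl13 (0.41). Leaving out the cecum left 1 large bowel library. Values then smaller by more than 1.5 times included those of Gfpt2 (0.22), Plat (0.42), Igf2r (0.39), Fosb (0.60), Atf3 (0.29), Jun (0.77), Dnajb1 (0.18) and Cx3cl1 (1.06). With at least 4 markers 24 of 84 no longer passed (7 of them smaller by more than 1.5 times), after thinning 13 of 72 (7), and without distal 2 17 of 91 (0). Leaving out another library ended 8 to 14 of these calls and the remaining alternatives at most 11.

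A further test asked whether the change between large bowel and small intestine differed between the members and the other Pdgfra+ cells of the same libraries, with the library as a block. Of 17509 genes, 190 had a more positive change (1.09%) and 179 a more negative change (1.02%) in members, 2.11% in all. Both classes were cut by the marker genes of the rule, and Ly6c1 among them differed by region. The difference of any gene can therefore draw on the rule. Of the 369 calls, 189 were made again with Ly6c1 not counted and 156 with a Pi16 UMI required. The differences of adventitial genes are given as a description. Of 40 such genes 8 were more positive and 0 more negative in members (median difference 0.52), and with Ly6c1 not counted 13 and 0 (1.57% and 1.21% of all genes).

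Col14a1, a fibril-associated collagen, was at 1047, 1123, 1129, 1289, 1144 and 458 CPM in members and 992, 987, 907, 1015, 343 and 166 CPM in the other Pdgfra+ cells (difference 1.38 ± 0.11). Pcolce2 was at 151, 166, 108, 114, 254 and 106 CPM in members and 41.7, 43.4, 29.7, 23.1, 17.2 and 8.93 CPM in the other cells (1.77 ± 0.15). Limch1 (1.52 ± 0.22), Adgrd1 (1.47 ± 0.27), Fn1 (0.92 ± 0.10), Fbn1 (0.74 ± 0.12), Cd55 (0.62 ± 0.11) and Stmn4 (1.94 ± 0.40) made up the rest. These 8 were named after their values were seen. With a Pi16 UMI required 12 were more positive and 1 more negative (1.92% and 1.02% of all genes), and without the cecum 7 and 0 (0.92% and 0.832%).

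The largest positive differences by the rule for named genes were those of Galnt16 (3.07 ± 0.22), Mmp10 (2.72 ± 0.22), Cyp1b1 (2.64 ± 0.20), Tmem178 (2.58 ± 0.28), Gm30382, P2rx1, Bmper, Tacr1, Itga8 and Wnt4. Galnt16, a glycosyltransferase, was at 33.3, 28.0, 32.5, 24.1, 31.3 and 7.99 CPM in members and 36.5, 20.3, 32.0, 16.9, 3.29 and 0.828 CPM in the other cells. Bmper, a BMP modulator, was at 12 to 17.5 CPM in small intestinal and 30.6 and 20.0 CPM in large bowel members, against 38.3 to 65.3 CPM and then 24.4 and 8.66 CPM in the other cells (2.5 ± 0.20). Mmp10, a stromelysin, was at 136, 151, 49.0, 102, 2.33 and 33.1 CPM in members and 691, 825, 324, 798, 3.22 and 27.5 CPM in the other cells. The classes lay far apart in the small intestine and close together in the large bowel for Mmp10, as they did for Itga8. With a Pi16 UMI required the differences of Mmp10 and P2rx1 took the opposite sign. Of the 27 genes named for this test, 13 no longer passed under that definition, 6 of them with a difference smaller by more than 1.5 times or reversed. With Ly6c1 not counted 8 no longer passed (5 of them smaller by as much), and after thinning 8 (2).

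The negative differences were led by Rgcc (-3.36 ± 0.42), Mecom (-3.12 ± 0.53), Fabp4 (-2.85 ± 0.41), Sorbs2 (-2.82 ± 0.34), Flt1 (-2.65 ± 0.30), Ptprb, Plcb4, Esam and Itga6. Flt1, a VEGF receptor of endothelium, was at 311, 37.0, 53.2, 78.9, 1.75 and 9.58 CPM in members and 36.8, 7.47, 10.8, 11.4, 1.16 and 10.2 CPM in the other cells. When cells with a UMI of the 5 blood endothelial markers were left out of both classes, an alternative chosen after seeing the data, 157 genes were more positive and 80 more negative. Of the 190 and 179 genes above, 115 and 65 were called again. Mecom and Sorbs2 then changed sign, and Rgcc, Ptprb, Esam, Itga6 and Tacr1 no longer passed.

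Between distal and proximal members the calls depended on the fit. Of 13564 genes tested by edgeR 0 were called (0%) and 585 had an unadjusted p under 0.05 (4.31%), while limma-voom called 0, DESeq2 60 and edgeR with the replicate number as a block 37. The genes nearest to the threshold, named after their values were seen, held Hox genes. Hoxc8 was at 19.2 and 11.1 CPM in the proximal and 108 and 99.1 CPM in the distal libraries (2.84 higher on the log2 scale, adjusted p = 0.084). Hoxc9 had 0.186 and 0 CPM against 12.6 and 10.7 CPM (adjusted p = 0.084), and Hoxa5 had 53.0 and 56.6 CPM against 9.44 and 15.1 CPM (adjusted p = 0.096). Hhip, a hedgehog antagonist, was at 72.3 and 78.0 CPM against 16.2 and 17.9 CPM (adjusted p = 0.054), and Scara5 at 191 and 180 CPM against 52.2 and 75.7 CPM (adjusted p = 0.15). The libraries of the 2 regions did not overlap in any of these 5 genes. They were picked by their values, so this adds no evidence beyond the adjusted p.

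Cecal and large intestinal members could be set side by side only as 1 library each, with no test. At a fold of 4 or more and 20 CPM or more in the higher library, 44 of 7451 genes (0.591%) were higher in the cecum and 38 (0.51%) were higher in the large intestine. In the cecum these held the cytokine Il6, at 97.0 CPM (95% Poisson interval 92.1 to 102, counting error only) against 10.6 CPM, Has1, at 470 against 69.1 CPM, Sema3e, at 23.3 against 0.673 CPM, and immediate early genes such as Fosb, Atf3 and Egr1. In the large intestine they held Sox6, at 370 against 55.3 CPM, Bmp7, at 64.4 against 9.97 CPM, the contractile genes Acta2, at 494 against 103 CPM, and Tagln, at 221 against 50.5 CPM, and Hoxa13, at 30.5 CPM with 0 UMIs in the cecum. Whether these differences belong to the tissues or to the libraries cannot be told apart.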

How the data were processed

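The authors made gene-by-barcode UMI counts from 10x 3′ libraries with Cell Ranger (8.1.0 in the submitters' processing notes, 8.0.1 in the file headers) on mm39 with a tdTomato sequence, and deposited the unfiltered counts with hashtag counts. Their later doublet removal and free RNA correction are not part of these counts, and no doublet caller was run here. The members and all gene lists were chosen with earlier results of these data known. UMIs were summed per library over the cells of a class and tested with edgeR 4.0.16 (TMM, filterByExpr with a minimum count of 10, quasi-likelihood test, adjusted p under 0.05). The 12 genes of the rule were left out of the calls. limma 3.58.1, DESeq2 1.42.0, other member definitions, a cell depth of 2500 UMIs and leaving out each library were alternatives. Shares were compared by exact permutation tests. Genes were named by size: per test up to 10 a direction with at least 20 CPM and libraries apart, up to 6 called genes a list, and up to 15 a direction for members against other Pdgfra+ cells (at 50 CPM, 6 of 6 libraries). Some genes that met these rules are not reported here. Coordinates come from GENCODE on the same build, matched by Ensembl ID (27 of 27). Scripts were tested on simulated data. Intervals cover counting error only.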

Additional observations from a re-analysis of the deposited data

Results flagged for a closer look

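In the members of the 4 small intestinal libraries, 111 levels of named genes were tested for a library far from the other 3 (Dixon's ratio of the gap to the range, above its 95% critical value), and 14 passed, where chance flags about 1 in 20. Proximal 1 was the high library for Mecom (ratio 0.948), Plvap (0.918), Adgrl4 (0.894), Flt1 (0.848) and Kdr (0.842), with Plvap at 189 CPM against 42.7 to 54.7 CPM, and also for Cxcl14 (0.912), Clu (0.879) and Hspb1 (0.862). In the same library the blood endothelial markers summed to 749 CPM against 124 to 203 CPM in the other 3, and their part in these values was not tested. Distal 2 was the high library for Plat (0.962) and Pla1a (0.947), and the low one for Rbp4 (0.935). Distal 1 was the low library for Foxl1 (0.831). The ratio of 1 for Hoxd10 and for Tnfsf11 came from 1 UMI in distal 2 and 0 elsewhere.

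The change between large bowel and small intestine differed between members and other Pdgfra+ cells, by the test of that difference, for 27 named genes. It was more positive in members for Galnt16 (3.07), Mmp10 (2.72), Cyp1b1 (2.64), Tmem178 (2.58), Gm30382 (2.55), P2rx1 (2.55), Bmper (2.5), Tacr1 (2.40), Itga8 (2.38) and Wnt4 (2.23), all on the log2 scale. Wnt4 was at 7.08 to 23.6 CPM in small intestinal members and 52.9 to 112 CPM in the other cells there, against 265 and 215 CPM in members and 402 and 243 CPM in the other cells of cecum and large intestine. It was more negative in members for Rgcc (-3.36), Mecom (-3.12), Fabp4 (-2.85), Sorbs2 (-2.82), Flt1 (-2.65), Ptprb (-2.65), Plcb4 (-2.57), Esam (-2.51) and Itga6 (-2.43). All of these differences can draw on the rule. Among the adventitial genes, given as a description, the difference was positive for Stmn4 (1.94), Pcolce2 (1.77), Limch1 (1.52), Adgrd1 (1.47), Col14a1 (1.38), Fn1 (0.92), Fbn1 (0.74) and Cd55 (0.62).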

How the results depend on the processing

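Against 3017 genes called between large bowel and small intestine, 770 were called with at least 4 markers (750 of them among the 3017), 812 with a Pi16 UMI required (688), 565 with cells thinned to 2500 UMIs (503) and 1983 with Ly6c1 not counted (1737). Leaving out 1 library gave 1241 (without the cecum, 1025 of them shared) to 3579 (without distal 1), with 1810 and 1691 without proximal 1 and 2 and 1354 without distal 2. The cause was not tested, although the stricter definitions hold fewer cells. With cells of any Ackr4 UMI kept 3521 genes were called, without cells that had a blood endothelial UMI 2934, with limma-voom 3021, with DESeq2 3211 and with no scaling by TMM 2619. Between distal and proximal members, against 0, DESeq2 called 60, no filter 416, at least 4 markers 1, a Pi16 UMI 3, cells with several hashtags left out 1, Ly6c1 not counted 9, Ackr4 not excluded 2, blood endothelial UMIs excluded 37 and all 6 libraries in the fit 1, and leaving out 1 library gave 0 to 267, with 108 without proximal 1 and 267 without proximal 2. No source used here says what the replicate numbers share, although proximal 1 and distal 1 carried the same 3 hashtag antibodies, and proximal 2 and distal 2 another 3. Same-numbered libraries had a correlation of 0.0718 in their deviations over 13571 genes, and the fit with the replicate block called 37 genes, 16 higher and 21 lower. For the difference between members and other Pdgfra+ cells (369), no filter gave 941, Ackr4 not excluded 723, blood endothelial UMIs excluded 237, and of the 369 calls 189 were made again with Ly6c1 not counted, 156 with a Pi16 UMI required and 138 after thinning. Leaving out 1 library gave 179 (without distal 2) to 511, with 241 without proximal 2. In that test the sign turned for Mmp10 (-0.19) and P2rx1 (-0.078) with a Pi16 UMI required, and for Mecom (0.77) and Sorbs2 (0.61) without blood endothelial UMIs. The difference in share between distal and proximal (0.667 points) became -0.0164 with at least 4 markers, -0.0210 with Ly6c1 not counted and, leaving out 1 library, ranged from -0.0163 without proximal 1 to 1.35 without proximal 2, while that between large bowel and small intestine ranged from 2.63 to 23.4 points and kept its direction. The median log2 ratio of the 15 genes highest in members (1.72) was 2.40 with at least 4 markers, and that of the 15 lowest (-1.87) was -2.40 with at least 4 markers and -2.46 after thinning. Most members had no UMI of Pi16 or Dpp4, which at this depth does not show that the gene was off.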

Other observations

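Cells with a single hashtag allowed the member share to be read within libraries, without a map from hashtags to mice. It was 4.64% to 4.94% of Pdgfra+ cells over the 3 hashtags of proximal 1, 4.71% to 7.55% in proximal 2, 5.38% to 6.87% in distal 1, 5.31% to 6.23% in distal 2, 14.3% to 18.2% in the cecum and 21.4% to 22.3% in the large intestine. The lowest hashtag of the large bowel libraries was above the highest of the small intestinal ones.

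Wt1, a transcription factor of mesothelium and visceral mesenchyme, was at 29.6, 36.5 and 56.9 CPM in the Pi16+ members of proximal 2, distal 2 and the large intestine and at 1.21, 2.64 and 7.12 CPM in those of proximal 1, distal 1 and the cecum. In Pi16- members it was at 0.486 to 6.67 CPM. Msln had 0 UMIs in all of these cells.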
